A study of Homo sapiens with 18 samples.

Results

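The enzymes described here handle ammonia, glutamine and the urea cycle in the human glioblastoma line U-87MG. They are 9 genes chosen by name: GLUL, GLUD1, GLS2, CPS1, ASS1, ASL, ARG2, OAT and ODC1. Of these, 8 were measured among 15529 named genes, each by 1 probe set, and GLS2 was not analysed here. The study measured total RNA on 18 Affymetrix arrays, in 6 groups of 3 that its design text calls independent experiments. Cells carried the lentiviral vector pLX301 with IL4I1 or the same vector empty. On top of that they carried a hairpin against the aryl hydrocarbon receptor AHR (shAHR1 or shAHR2) or a non-targeting hairpin (shCtrl). The 6 groups were IL4I1 shAHR1, IL4I1 shAHR2, IL4I1 shCtrl, empty-vector shAHR1, empty-vector shAHR2 and empty-vector shCtrl. All were stable, selected lines grown for 120 hours in medium with 10% serum, 2 mM glutamine and 1 mM pyruvate, and the labels do not say how many infections stand behind a line.

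IL4I1 is a secreted oxidase of aromatic amino acids that releases ammonia, hydrogen peroxide and a keto acid for each amino acid it consumes. Cells fix ammonia mainly by glutamine synthetase, the product of GLUL, which joins it to glutamate; in the brain this is a hallmark of astrocytes. The liver turns ammonia into urea through carbamoyl phosphate (CPS1), argininosuccinate (ASS1 and ASL) and arginine, which arginase splits into urea and ornithine. Ornithine then feeds proline and glutamate through OAT, or polyamines through ODC1. Cells outside the liver usually carry fragments of this cycle, among them the mitochondrial arginase ARG2.

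AHR binds DNA at elements with the core GCGTG. Promoter windows are printed for GLUL, which rose most clearly with IL4I1, and for ARG2 and OAT. Those 2 were the members with a limma adjusted p under 0.05 on the mean of the AHR hairpins. Each holds the 250 bases upstream of a start site in RefSeq (GRCh38.p14), 5′ to 3′ on the gene's strand, with GCGTG or its reverse complement CACGC in capitals. GLUL has 2 windows because RefSeq lists 2 start sites.
GLUL window 1, chr1:182391791-182392040, minus strand: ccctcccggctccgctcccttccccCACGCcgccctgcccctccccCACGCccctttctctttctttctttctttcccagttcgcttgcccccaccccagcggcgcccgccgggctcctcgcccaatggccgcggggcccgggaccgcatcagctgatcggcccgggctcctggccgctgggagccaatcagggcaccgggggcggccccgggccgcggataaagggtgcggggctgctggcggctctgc
GLUL window 2, chr1:182391342-182391591, minus strand: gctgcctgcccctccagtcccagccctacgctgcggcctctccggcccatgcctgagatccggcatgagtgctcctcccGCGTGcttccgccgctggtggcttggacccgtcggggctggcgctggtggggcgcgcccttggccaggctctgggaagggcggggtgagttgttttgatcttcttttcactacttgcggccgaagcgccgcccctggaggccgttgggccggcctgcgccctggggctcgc
ARG2, chr14:67619670-67619919, plus strand: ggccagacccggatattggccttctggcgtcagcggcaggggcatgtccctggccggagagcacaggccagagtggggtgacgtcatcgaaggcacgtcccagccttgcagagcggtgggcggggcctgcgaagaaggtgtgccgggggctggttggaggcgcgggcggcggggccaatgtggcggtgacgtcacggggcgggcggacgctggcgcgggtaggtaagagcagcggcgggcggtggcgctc
OAT, chr10:124418924-124419173, minus strand: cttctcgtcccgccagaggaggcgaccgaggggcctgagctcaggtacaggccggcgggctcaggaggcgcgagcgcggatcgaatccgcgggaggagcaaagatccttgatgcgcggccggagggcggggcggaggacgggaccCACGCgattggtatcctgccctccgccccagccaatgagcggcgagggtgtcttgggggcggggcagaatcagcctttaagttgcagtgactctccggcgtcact
The GLUL windows hold the core 225, 204 and 171 bases before their start sites, the OAT window holds it 105 bases before, and the ARG2 window holds none. Of the windows not printed, that of GLUD1 holds it 229 bases before, and window 1 of ODC1 209, 206 and 17 bases before. Over the 8 measured members, 5 of 13 windows and 4 of 8 genes (GLUL, GLUD1, OAT and ODC1) had a match on either strand, against 32.2% of 35116 RefSeq windows of the same length. The E-box CACGTG, the site of MYC and related factors, lay in 3 of 13 windows (1 each of ASS1, CPS1 and ODC1), against 6.3% of all windows. The C/EBP-ATF element TGATGNAA, which ATF4 can bind, lay in 0 of 13, against 3.1%. These matches describe the letters only, and no window of a measured member held both an E-box and an AHR core.

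The engineered genes followed the labels. IL4I1 lay between 12.67 and 13.01 (log2 expression) on the 9 arrays with the transgene and between 5.27 and 6.43 on the 9 empty-vector arrays. AHR lay between 7.45 and 8.16 on the 12 AHR hairpin arrays and between 9.84 and 10.33 on the 6 shCtrl arrays. Of the tissue markers, VIM and CD44 were bright on every array (VIM up to 12.43, CD44 from 10.65 to 11.41). The astrocyte markers GFAP (5.63 to 6.88) and AQP4 (4.54 to 6.78) stayed around or below the array medians of 6.46 to 6.53. Their list was mixed, since it also holds VIM and CD44. The median level of all 7 measured astrocyte and glioma markers ran from 6.17 to 6.98. That of the 5 kidney and epithelial markers ran from 5.66 to 6.95. The liver marker ALB reached at most 6.91 and the leukocyte marker PTPRC at most 6.78. Replicate 2 of the empty-vector shCtrl group stood apart, with an interquartile range of relative log expression of 0.52, against 0.316 to 0.466 on the other arrays. Calls of the members, of other nitrogen genes and of astrocyte markers that were lost without it are marked below; those of MYC, ATF4, the cell cycle genes and the ATF4 response list were not recomputed without it.

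GLUL, glutamine synthetase, was the member that separated the IL4I1 arrays from the others. Its log2 level was 9.23, 9.51 and 9.33 in IL4I1 shAHR1 cells, against 9.02, 8.60 and 8.69 in empty-vector shAHR1 cells. It was 9.67, 9.42 and 9.64 in IL4I1 shAHR2 cells, against 9.08, 8.88 and 9.08 in empty-vector shAHR2 cells. It was 9.59, 9.58 and 9.61 in IL4I1 shCtrl cells, against 8.70, 8.27 and 8.71 in empty-vector shCtrl cells. All 9 arrays with IL4I1 lay above all 9 without it, whichever hairpin the cells carried. The group means, in falling order, were 9.59 in IL4I1 shCtrl, 9.58 in IL4I1 shAHR2, 9.36 in IL4I1 shAHR1, 9.01 in empty-vector shAHR2, 8.77 in empty-vector shAHR1 and 8.56 in empty-vector shCtrl cells. Neighbours in that order overlapped, except where the IL4I1 groups end. In shCtrl cells GLUL rose 2.04-fold with IL4I1, a log2 change of 1.03 ± 0.16 (SE, limma adjusted p = 0.0021). Averaged over the 3 hairpin backgrounds the log2 change was 0.73 ± 0.09 (adjusted p = 8.4e-05). Within the hairpin backgrounds taken singly it was 0.59 ± 0.16 in shAHR1 and 0.56 ± 0.16 in shAHR2 cells, neither past the threshold of 0.05 (adjusted p = 0.075 and 0.12). Without replicate 2 of the empty-vector shCtrl group, the lowest of all 18 arrays for GLUL, the change in shCtrl cells was 0.88 (adjusted p = 0.012). With only the shCtrl arrays in the fit it missed the threshold (adjusted p = 0.059). The array carries bulk RNA, so more cells with GLUL and more GLUL RNA per cell cannot be told apart, here or for any gene below.

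GLUD1, glutamate dehydrogenase, which can release ammonia from glutamate or fix it, did not pass in any comparison. Its log2 level ran from 6.76 to 7.66 on the IL4I1 arrays and from 6.79 to 7.57 on the empty-vector arrays, so the arrays overlapped over nearly the whole range. The mean change with IL4I1 was -0.12, with a 95% confidence interval of -0.37 to 0.13. Its lowest group was IL4I1 shAHR1 (6.93, 6.76 and 6.81), which lay below every array of IL4I1 shAHR2 (7.34, 7.43 and 7.23). That difference of -0.50 ± 0.21 did not pass (adjusted p = 0.61). RefSeq lists 6 pseudogene copies each of GLUL and GLUD1, and the paralog GLUD2 is nearly identical to GLUD1, so probe sets of both could take up RNA of copies.

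**Figure D1:**
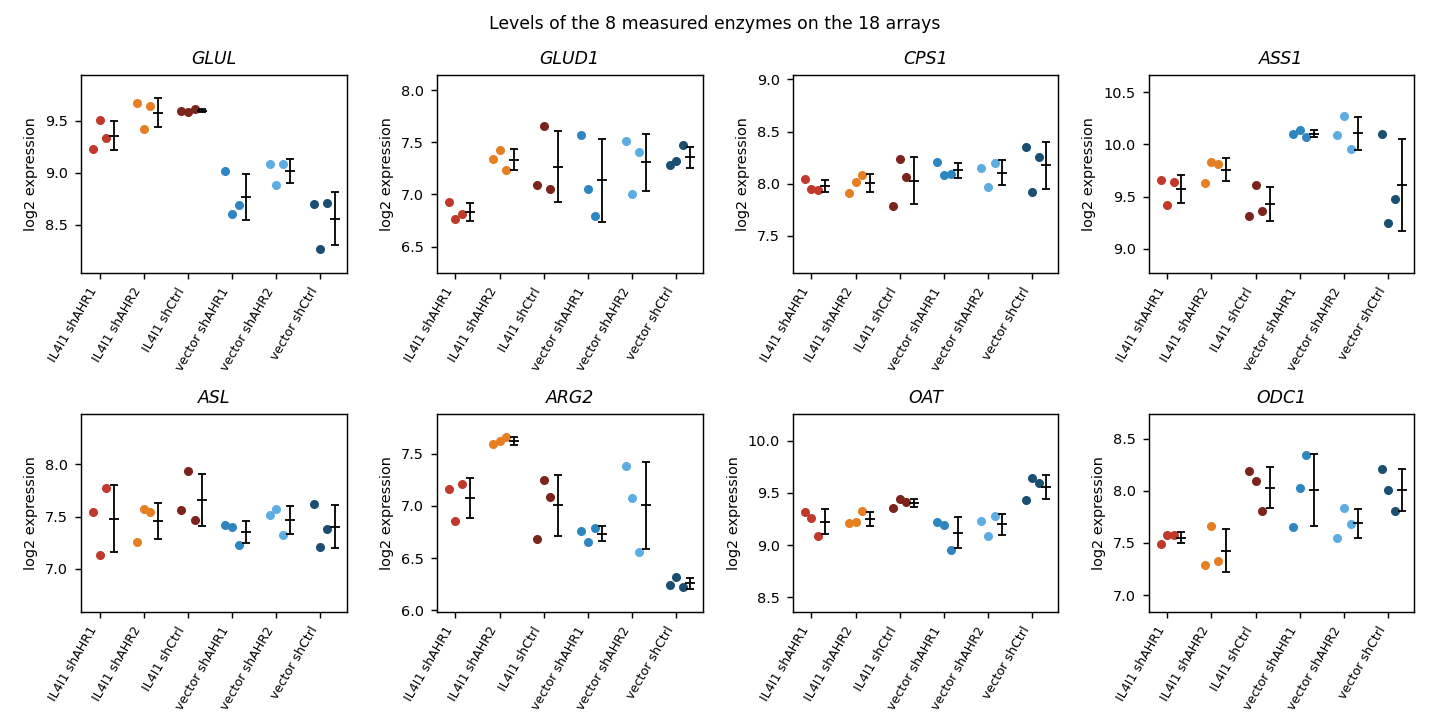
Log2 expression of the 8 measured enzymes (y axis, each panel spanning the same width of log2 units) by group (x axis; "vector" is the empty vector). Coloured points are arrays, and the black bar beside each group is its mean ± SD (n = 3). The 9 IL4I1 arrays of GLUL sit between 9.23 and 9.67, all above the empty-vector arrays at 8.27 to 9.08, and ARG2 is lowest in the empty-vector shCtrl cells (6.22 to 6.32).

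CPS1, which makes the carbamoyl phosphate that enters the cycle, was level across the groups. Its group means lay between 7.98 and 8.18, and its mean change with IL4I1 was -0.13 with an interval of -0.31 to 0.05. Changes of CPS1 in the other comparisons were likewise uncalled, and the mean hairpin change was -0.05 (interval -0.24 to 0.14). ASL, which splits argininosuccinate into arginine and fumarate, ranged from 7.13 to 7.94 and also passed in no comparison. Its mean change with IL4I1 was 0.12 (interval -0.10 to 0.35).

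ASS1, argininosuccinate synthase and the step that commits citrulline to arginine, fell with IL4I1 on the mean of the 3 backgrounds. Its log2 level was 9.66, 9.42 and 9.64 in IL4I1 shAHR1 cells, against 10.10, 10.14 and 10.07 in empty-vector shAHR1 cells. It was 9.63, 9.83 and 9.81 in IL4I1 shAHR2 cells, against 10.09, 10.27 and 9.96 in empty-vector shAHR2 cells. In both hairpin backgrounds the arrays with IL4I1 lay below those without. In shCtrl cells they did not separate, with 9.31, 9.61 and 9.36 in IL4I1 cells, against 10.10, 9.25 and 9.48 in empty-vector cells. The mean log2 change was -0.35 ± 0.11 (limma adjusted p = 0.039), and those of single backgrounds were -0.53 ± 0.18 in shAHR1, -0.34 ± 0.18 in shAHR2 and -0.19 ± 0.18 in shCtrl, none called. The mean change lost its call in 12 of 18 fits that left out 1 array (adjusted p up to 0.084). It held without any 1 of the empty-vector shCtrl arrays, replicate 3 of empty-vector shAHR2, replicate 1 of IL4I1 shAHR1 or replicate 2 of IL4I1 shCtrl. The empty-vector shCtrl arrays were wide apart for ASS1, and without replicate 1 of that group the shCtrl change was 0.06. RefSeq lists 14 pseudogene copies of ASS1.

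ARG2, the mitochondrial arginase, rose with IL4I1 and was also higher with the AHR hairpins. Its log2 level was 7.16, 6.86 and 7.21 in IL4I1 shAHR1 cells, against 6.76, 6.65 and 6.79 in empty-vector shAHR1 cells. It was 7.59, 7.62 and 7.66 in IL4I1 shAHR2 cells, against 7.38, 7.08 and 6.56 in empty-vector shAHR2 cells. It was 6.68, 7.25 and 7.09 in IL4I1 shCtrl cells, against 6.24, 6.32 and 6.22 in empty-vector shCtrl cells. In each background the arrays with IL4I1 lay above those without, the IL4I1 shAHR2 arrays were the highest of all 18, and the empty-vector shCtrl arrays were the lowest of all 18. The log2 change with IL4I1 was 0.75 ± 0.19 in shCtrl cells (limma adjusted p = 0.035) and 0.57 ± 0.11 on the mean of the backgrounds (adjusted p = 0.0023). It was 0.34 ± 0.19 in shAHR1 and 0.62 ± 0.19 in shAHR2 cells, both uncalled (adjusted p = 0.5 and 0.15). The call in shCtrl cells was lost in 5 of 6 fits that left out 1 array, all but the one without replicate 1 of the IL4I1 cells (adjusted p up to 0.13, and 0.091 without replicate 2 of the empty-vector cells) and with only the shCtrl arrays in the fit (0.14). The mean change kept its call in 18 of 18 such fits.

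OAT, ornithine aminotransferase, did not separate the IL4I1 arrays from the others. It ran from 9.09 to 9.44 with IL4I1 and from 8.95 to 9.64 without, and its mean change was 0.00 (interval -0.15 to 0.16). ODC1, ornithine decarboxylase, the entry to polyamines and a known MYC target, ran from 7.29 to 8.19 with IL4I1 and from 7.55 to 8.34 without. Its mean change was -0.23 ± 0.10 (adjusted p = 0.17), with -0.46 in shAHR1, -0.26 in shAHR2 and 0.02 in shCtrl cells. MYC itself rose by 0.40 ± 0.10 on the mean of the backgrounds (adjusted p = 0.011).

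With IL4I1, 2 of 8 members were called in shCtrl cells (GLUL and ARG2), where 4.58% of all genes were called. On the mean of the 3 backgrounds 3 of 8 were called (2 rose and 1 fell), against 12.6% of all genes. In shAHR1 and shAHR2 cells 0 of 8 passed limma's adjusted p, against 1.31% and 0.612% of all genes; at an unadjusted p under 0.05 there were 3 and 2 members, and 13.2% and 11.9% of all genes. The median log2 change of the members was -0.06 on the mean of the backgrounds, against 0.01 over all genes. These comparisons share arrays, since the mean is built from the 3 single contrasts.

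**Figure D2:**
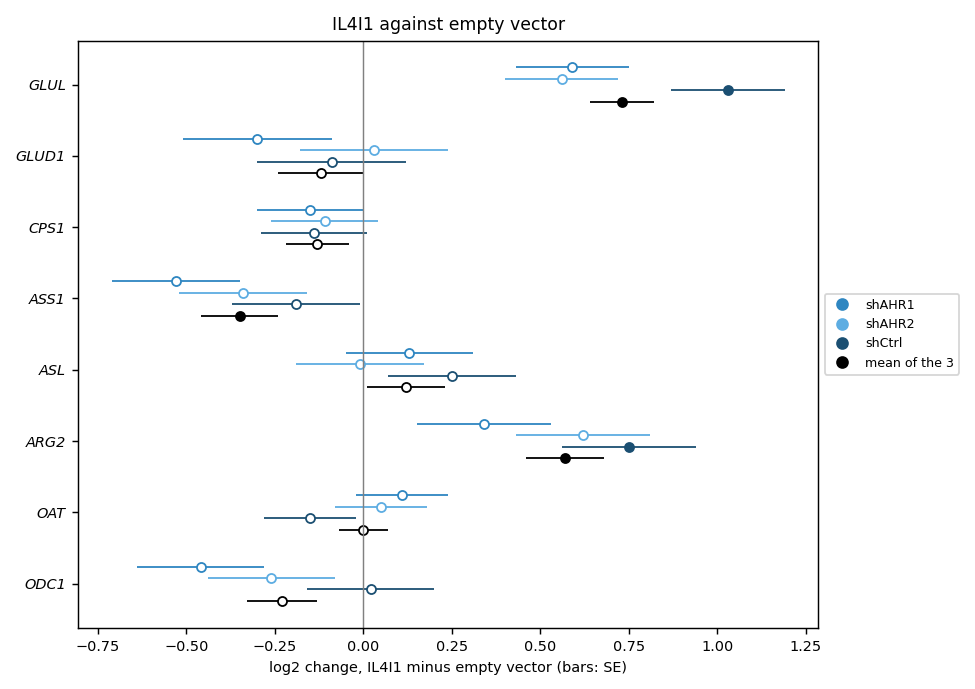
Log2 change of each enzyme with IL4I1 against the empty vector (x axis) in shAHR1, shAHR2 and shCtrl cells and on their mean; bars are standard errors and filled points passed an adjusted p of 0.05. GLUL is filled in shCtrl cells (1.03) and on the mean (0.73), ARG2 likewise (0.75 and 0.57), and ASS1 on the mean alone (-0.35).

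The interaction asks whether IL4I1 changed a gene differently in cells with an AHR hairpin than in shCtrl cells. For GLUL the log2 change with IL4I1 in hairpin cells minus that in shCtrl cells was -0.44 ± 0.22 for shAHR1 and -0.46 ± 0.22 for shAHR2. Their mean was -0.45 ± 0.19, with an interval of -0.86 to -0.04, an unadjusted p of 0.032 and an adjusted p of 0.88, so the test does not show a difference between the backgrounds. For ARG2 the mean interaction was -0.27 ± 0.23 and for ASS1 it was -0.25 ± 0.23. Members called by limma were 0 of 8 in each of the interactions with shAHR1, with shAHR2 and with their mean, against 0%, 0.0129% and 0.0193% of all genes. At an unadjusted p under 0.05 the members numbered 0, 0 and 1, against 5.8%, 4.31% and 5.38% of all genes.

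The AHR hairpins asked what lowering AHR did to the same enzymes. Averaged over both hairpins and both vectors, ARG2 rose by 0.48 ± 0.12 (limma adjusted p = 0.023) and OAT fell by 0.28 ± 0.08 (adjusted p = 0.048), 2 of 8 members against 5.36% of all genes. With IL4I1, OAT levels were 9.32, 9.26 and 9.09 under shAHR1 and 9.21, 9.22 and 9.33 under shAHR2, against 9.36, 9.44 and 9.41 under shCtrl. With the empty vector they were 9.22, 9.19 and 8.95 under shAHR1 and 9.23, 9.09 and 9.28 under shAHR2, against 9.43, 9.64 and 9.60 under shCtrl. All 12 hairpin arrays of OAT (8.95 to 9.33) thus lay below all 6 shCtrl arrays (9.36 to 9.64). The change was small, and its adjusted p exceeded 0.05 in 17 of 18 fits without 1 array, all but that without replicate 1 of the empty-vector shCtrl cells (up to 0.11), and with a replicate block (0.056). ARG2 lost its call without replicate 3 of the empty-vector shCtrl cells (adjusted p = 0.052) and without replicate 1 of the IL4I1 shCtrl cells (0.084).

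ASS1 and ODC1 differed in sign under the hairpins, and neither passed in the main fit of all arrays and genes. Both passed in the fit without dim genes. The mean hairpin change was 0.37 ± 0.11 for ASS1 (limma adjusted p = 0.075) and -0.35 ± 0.11 for ODC1 (adjusted p = 0.081). Leaving out replicate 1 of the empty-vector shCtrl cells gave 0.49 for ASS1 (adjusted p = 0.0062). Leaving out replicate 3 of the empty-vector shAHR1 cells gave -0.39 for ODC1 (adjusted p = 0.043). ODC1 was 7.49, 7.58 and 7.58 in IL4I1 shAHR1 cells and 7.29, 7.66 and 7.33 in IL4I1 shAHR2 cells, against 8.19, 8.09 and 7.81 in IL4I1 shCtrl cells. The hairpin arrays lay below the shCtrl arrays there. Without IL4I1 they overlapped, with 7.65, 8.03 and 8.34 in shAHR1 and 7.55, 7.83 and 7.68 in shAHR2 cells, against 8.21, 8.01 and 7.81 in shCtrl cells. GLUL had a mean hairpin change of 0.10 ± 0.10 (adjusted p = 0.65). It had -0.23 and -0.01 under shAHR1 and shAHR2 with IL4I1, and 0.21 and 0.45 with the empty vector, all uncalled.

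Taken singly, no hairpin contrast called a member. With IL4I1 the counts were 0 of 8 for shAHR1 and 0 of 8 for shAHR2 in limma, against 1.55% and 1.26% of all genes, with 2 and 2 at an unadjusted p under 0.05 (12.5% and 11.7% of all genes). Without IL4I1 they were 0 of 8 for each, against 0.406% and 0.734%, with 3 and 4 unadjusted (11% and 11.1% of all genes). ARG2 had 0.07 ± 0.19 under shAHR1 and 0.62 ± 0.19 under shAHR2 with IL4I1, and 0.48 ± 0.19 under shAHR1 with the empty vector. The lowest adjusted p was that of ARG2 under shAHR2 without IL4I1 (0.75 ± 0.19, adjusted p = 0.082). Set against each other, shAHR1 and shAHR2 called 0 of 8 members and 0% of all genes with limma, both with and without IL4I1, and 2 and 0 members had an unadjusted p under 0.05, as did 7.28% and 6.89% of all genes. The lowest p among the members was that of ARG2 in IL4I1 cells, where shAHR1 minus shAHR2 was -0.55 ± 0.19 (adjusted p = 0.5).

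**Figure D3:**
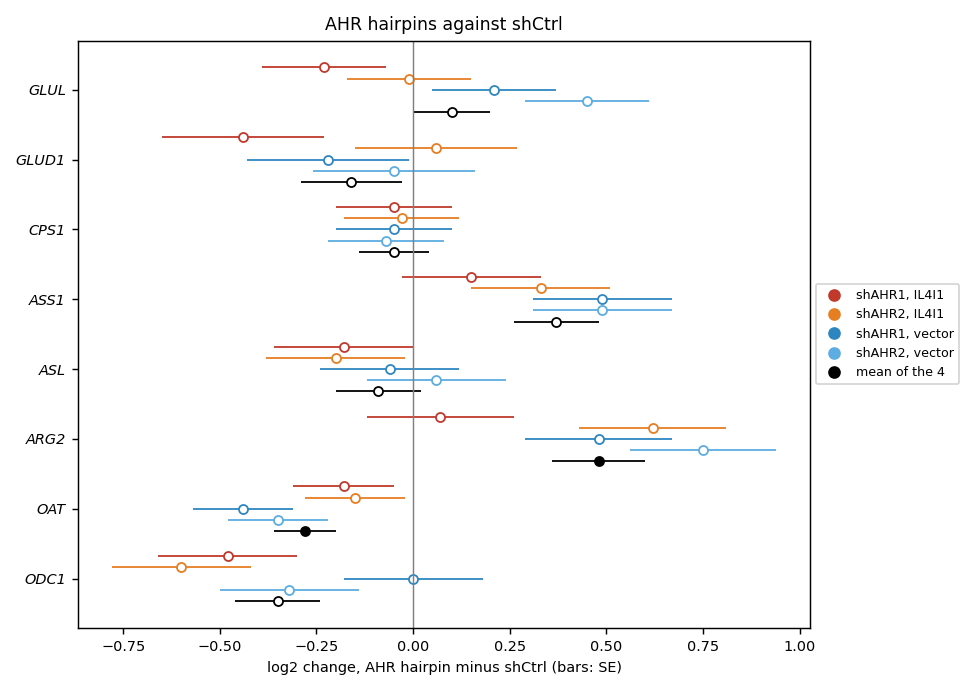
Log2 change of each enzyme with an AHR hairpin against shCtrl (x axis), for each hairpin with IL4I1 and with the empty vector, and their mean; bars are standard errors and filled points passed an adjusted p of 0.05. Filled points are those of ARG2 (0.48) and OAT (-0.28) on the mean, and no single hairpin contrast is filled.

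The design text sets IL4I1 cells with an AHR hairpin against empty-vector shCtrl cells, a contrast that changes both genes at once. In it GLUL rose by 0.79 ± 0.16 with IL4I1 and shAHR1 (limma adjusted p = 0.0097) and by 1.01 ± 0.16 with IL4I1 and shAHR2 (adjusted p = 0.0023). ARG2 rose by 0.82 ± 0.19 (adjusted p = 0.023) and by 1.37 ± 0.19, or 2.58-fold (adjusted p = 0.0012). These were 2 of 8 members in each contrast, against 4.53% and 3.35% of all genes. Both contrasts share the empty-vector shCtrl arrays with each other and with the comparisons above. Without replicate 2 of those arrays both calls with shAHR1 were lost, GLUL at 0.65 (adjusted p = 0.052) and ARG2 at 0.84 (adjusted p = 0.067). GLUL with shAHR1 also lost its call without replicate 2 of the IL4I1 shAHR1 cells, and ARG2 without replicate 1 or 3 of those cells or replicate 3 of the empty-vector shCtrl cells. Both calls with shAHR2 held in 6 of 6 fits without 1 array. ODC1 had -0.46 ± 0.18 and -0.58 ± 0.18 and did not pass (adjusted p = 0.17 and 0.092).

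The rest of nitrogen handling was read from 84 further genes of 8 groups, of which 71 were measured. With IL4I1, 3 of the 71 rose and 0 fell in shCtrl cells, which is 4.23%, against 4.58% of all genes. On the mean of the backgrounds 11 rose and 2 fell, which is 18.3%, against 12.6% of all genes, and the median log2 change was 0.02, against 0.01. Of the 3 calls in shCtrl cells (ADA, SLC1A5 and GFPT1) all were lost without replicate 2 of the empty-vector cells, with adjusted p = 0.089, 0.18 and 0.16. Of the 13 calls on the mean, 8 held in 18 of 18 fits without 1 array; those of PSAT1, PYCR1, ALDH4A1, SDS and MAOA held in 4, 6, 11, 13 and 10, and of these 5 all but SDS were lost without that replicate 2 (adjusted p from 0.052 to 0.084). Of the 11 risers 6 came from the list of other ammonia-releasing enzymes, where 15 were measured, 0 fell and the median change was 0.05. They were adenosine deaminase ADA (0.81 ± 0.12, adjusted p = 2.4e-04), cystathionine beta-synthase CBS (0.79 ± 0.16, adjusted p = 0.0037), and CTH, cystathionine gamma-lyase (0.61 ± 0.13, adjusted p = 0.0054). The others were the glycine cleavage enzyme GLDC (0.74 ± 0.17), serine dehydratase SDS (0.54 ± 0.15) and monoamine oxidase MAOA (0.36 ± 0.10). CBS makes cystathionine from serine and homocysteine and releases no ammonia itself, and neither does GLDC, which is a part of the glycine cleavage system. GLDC and SDS were dim, and 9.8% and 16.8% of genes had lower means over the 18 arrays.

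ADA was the one gene of this group called in single backgrounds. Its level was 7.36, 7.70 and 7.03 in IL4I1 shAHR1 cells, against 6.39, 6.36 and 5.95 in empty-vector shAHR1 cells. It was 6.65, 7.14 and 7.14 in IL4I1 shCtrl cells, against 6.24, 6.17 and 6.04 in empty-vector shCtrl cells. The arrays of both pairs were apart, with log2 changes of 1.13 ± 0.20 in shAHR1 (limma adjusted p = 0.014) and 0.83 ± 0.20 in shCtrl cells (adjusted p = 0.03). The calls held in 4 of 6 fits without 1 array in shAHR1 and in 2 of 6 in shCtrl cells. In shAHR2 cells the arrays were apart too, but the change was 0.47 ± 0.20 and did not pass (adjusted p = 0.35).

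Among users and carriers of glutamine, SLC1A5, the main glutamine importer of many tumour cells, rose by 0.63 ± 0.13 on the mean (adjusted p = 0.0047) and by 0.88 ± 0.23 in shCtrl cells (adjusted p = 0.041). It was the one riser of 9 measured channels and carriers on the mean, where 12.6% of all genes were called. Of 10 glutamine amidotransferases, GFPT1, which opens the hexosamine pathway, rose by 0.47 ± 0.09 (adjusted p = 0.0022), and CTPS1, which makes CTP, fell by 0.42 ± 0.08 (adjusted p = 0.0032). Asparagine synthetase, ASNS, had a change of 0.49 ± 0.18 and did not pass (adjusted p = 0.083). Of 9 measured transaminases and related enzymes PSAT1 of serine synthesis rose, by 0.41 ± 0.13 (adjusted p = 0.042).

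Around the cycle itself, the aspartate-glutamate carrier SLC25A12 fell by 0.78 ± 0.14 (adjusted p = 0.0014), the one change among 5 measured genes. Its 9 arrays with IL4I1 ran from 6.12 to 7.37 with a median of 6.88, against 7.22 to 7.83 with a median of 7.61 for the empty vector. NAGS, whose product activates CPS1, changed by 0.15 ± 0.13 and the ornithine carrier SLC25A15 by -0.08 ± 0.19, both uncalled. The liver arginase ARG1 was dim, at 3.87 to 5.79 with IL4I1 and 4.54 to 5.80 without, and OTC was not analysed here. In proline and ornithine metabolism 2 of 6 genes were called on the mean of the backgrounds, against 12.6% of all genes. Both rose, the synthesis enzyme PYCR1 (0.55 ± 0.17, adjusted p = 0.039) and ALDH4A1 of proline breakdown (0.43 ± 0.12, adjusted p = 0.027). Of 11 polyamine genes and 6 genes of nitric oxide and arginine use, limma called 0 on that mean. At an unadjusted p under 0.05 there were 2 and 0, against 25.5% of all genes.

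**Figure D4:**
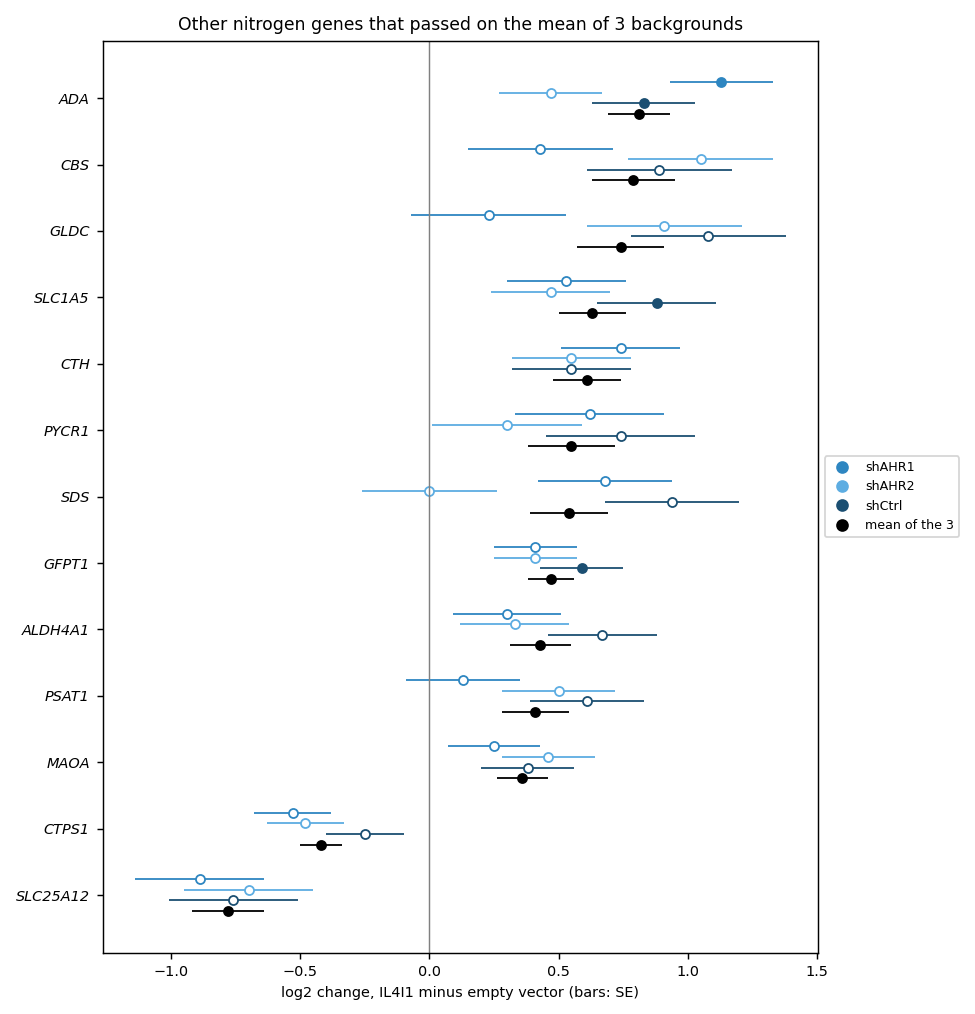
Log2 change with IL4I1 against the empty vector (x axis) for the 13 of 71 other nitrogen genes called on the mean of the backgrounds, which chose them, in order of that mean; bars are standard errors and filled points passed. The 11 risers run from ADA (0.81) to MAOA (0.36), and CTPS1 (-0.42) and SLC25A12 (-0.78) fell.

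The AHR hairpins called 5 of the 71 on their mean, which is 7.04%, against 5.36% of all genes. DDAH1, which breaks down a methylarginine inhibitor of nitric oxide synthase, rose by 0.60 ± 0.11 (adjusted p = 0.0037), and MAOA by 0.50 ± 0.11 (adjusted p = 0.011). GFPT2, the paralog of GFPT1, fell by 0.50 ± 0.10 (adjusted p = 0.0079). Spermine oxidase SMOX fell by 0.50 ± 0.14 (adjusted p = 0.039), and SLC25A13, the second aspartate-glutamate carrier, by 0.38 ± 0.10 (adjusted p = 0.046). DDAH1, MAOA and GFPT2 kept their call in 18 of 18 fits without 1 array, SMOX in 7 and SLC25A13 in 3. With and without IL4I1, SLC25A13 had -0.13 and -0.12 under shAHR1, against -0.58 and -0.68 under shAHR2, all uncalled, and the hairpins did not differ past the threshold in any gene.

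Across the 18 arrays the genes most like GLUL were EMILIN2, a matrix glycoprotein, STC2, a secreted stanniocalcin, and the small RNA SNAR-I, with Pearson r of 0.92 each. Once group means were removed, r was 0.47, 0.39 and 0.45. ARG2 was most like TRIM22 (0.90), TDRD3 (0.89) and MAOA (0.87). ASS1 was most like GYPC (0.91), NPTN (0.90) and COMMD7 (0.89), and r with GYPC within groups was 0.88. OAT was most like the amino acid transporter SLC7A8 (0.88), AHR itself (0.79) and CALB2 (0.78), with r within groups of 0.48, 0.25 and 0.26. GLUL and ARG2 had r = 0.71 with each other over the 18 arrays and -0.15 within groups. These values are descriptions over arrays that share vectors and hairpins.

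Other gene groups moved with IL4I1 on the same arrays. The median of 18 cell cycle genes, each set to 0 at its mean over 18 arrays, ran from -1.60 to -0.18 with IL4I1, against 0.11 to 1.68 without. On the mean of the backgrounds 18 of 18 were called as falling, where 12.6% of all genes were called. The median of 14 ATF4 response genes, the amino acid stress programme, ran from 0.17 to 0.56 with IL4I1, against -1.38 to 0.10 without. Of these, 9 of 14 were called as rising on the same mean. PSAT1 and ASNS stand in both that list and the nitrogen lists. ATF4 itself rose by 0.39 ± 0.11 (adjusted p = 0.026). The part of these shifts in the levels of GLUL, ARG2 and ASS1 was not tested. Of 7 measured astrocyte and glioma markers 2 were called with IL4I1 in shCtrl cells, where 4.58% of all genes were called. Both fell, SLC1A3 (-0.90 ± 0.19, adjusted p = 0.014) and GFAP (-0.74 ± 0.20, adjusted p = 0.042), in the contrast in which GLUL rose. The GFAP call was lost without replicate 2 of the empty-vector cells (-0.63, adjusted p = 0.17), and GFAP had 0.16 and 0.03 in shAHR1 and shAHR2 cells. On the mean of the backgrounds SLC1A3, an astrocytic glutamate transporter, fell by 1.01 ± 0.11 (adjusted p = 3.0e-05) and GFAP did not pass (-0.18 ± 0.11, adjusted p = 0.34). The list median ran from -0.38 to 0.05 with IL4I1, against -0.08 to 0.24 without. Of the liver, leukocyte and epithelial markers measured (6, 2 and 5), limma called 0 on that mean, against 12.6% of all genes. At an unadjusted p under 0.05 there were 0, 0 and 1, against 25.5% of all genes. These lists are too short to set against such shares.

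**Figure D5:**
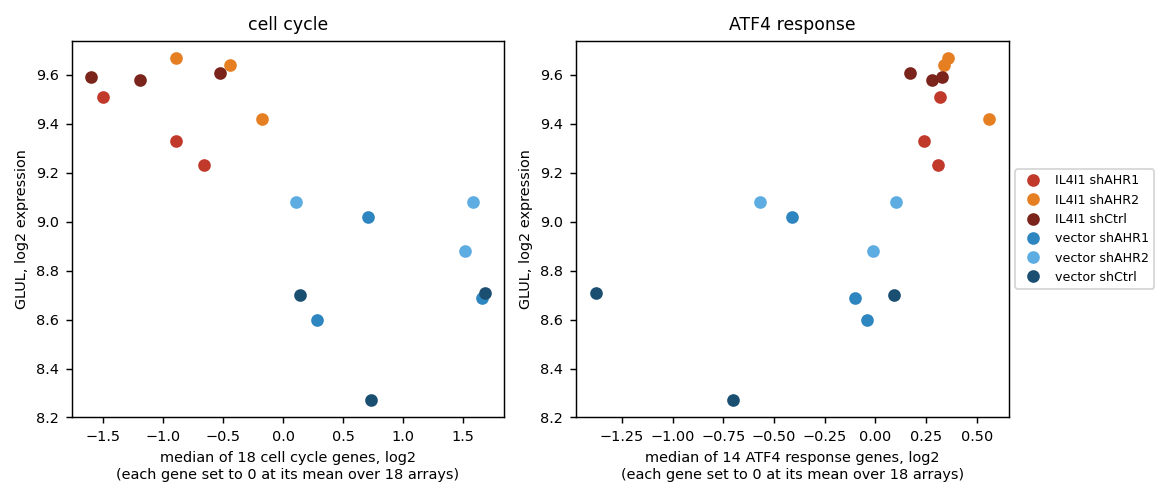
GLUL log2 expression (y axis) against the median of 18 cell cycle genes (left) and of 14 ATF4 response genes (right), each gene set to 0 at its mean over the 18 arrays; points are arrays, coloured by group. The 9 IL4I1 arrays lie at cell cycle medians of -1.60 to -0.18 and ATF4 medians of 0.17 to 0.56, the empty-vector arrays at 0.11 to 1.68 and -1.38 to 0.10.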

How the data were processed

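Total RNA of U-87MG cells was hybridised to 18 single-colour Affymetrix arrays, 3 in each of 6 groups. The authors deposited RMA values on the log2 scale, 1 for each probe set, made with oligo per the submitters' processing notes, whose version is not given in the sources used here. This method equalises the array distributions and so removes any change common to all transcripts. The log2 scale was read from the values (1.11 to 13.4, array medians 6.46 to 6.53).

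Of 18913 probe sets, 15598 had 1 gene symbol in the platform annotation, 870 had several and 2445 were not listed. Old symbols were updated through RefSeq in 1173 cases, and the brightest probe set was kept for 66 genes with several. The 15529 genes were fitted with limma 3.58.1 in R 4.3.3 (lmFit, eBayes), as 6 group means over all 18 arrays, with Benjamini-Hochberg adjustment over all genes and a threshold of 0.05. Comparisons therefore share 1 estimate of spread per gene. Precision is limited by the number of arrays, and for IL4I1 in shCtrl cells the standard errors had a median of 0.22 log2 units. The fits were tested on simulated data.

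The 9 members, the other gene lists and the comparisons were chosen with earlier results of these data known. All members were named, as were called genes of the other lists, a few fixed regulators and carriers, and for each called member the 3 genes with the highest Pearson r. Medians of lists are descriptions. Alternatives were a fit of only the groups compared, a replicate block, a trended robust fit, array weights, removal of dim genes, other scalings, the mean of probe sets, a log2 change of at least 1, and leaving out each array. Same-numbered arrays deviated together (r = 0.16, 0.18 and 0.25) in empty-vector shAHR1 and shCtrl cells, the 1 pair of groups with r over 0.1 for all 3 numbers, so a block by number was also run there. Promoter windows came from RefSeq (GRCh38.p14); motifs were searched on both strands. No gene coordinates were taken for the probe sets, whose build is not given in the sources used here.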

Additional observations from a re-analysis of the deposited data

How the results depend on the processing

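Of 2152 member values under the alternatives, 2090 kept their direction and their side of the threshold, 48 lost a call, 12 gained one and 2 turned sign; 61 of those counted as kept were uncalled values that crossed 0 within 1 standard error (at most 0.16 in size, and 0.14 under the alternative). Both reversals were of ASS1 without replicate 1 of the empty-vector shCtrl cells, to 0.06 for IL4I1 in shCtrl cells and to 0.21 for IL4I1 with shAHR1 against empty-vector shCtrl cells; leaving out 1 array gave ranges of -0.37 to 0.06 and -0.22 to 0.21. The call of GLUL on the mean of the backgrounds held under each alternative run, apart from a required log2 change of at least 1.

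With only the compared groups in the fit, which leaves fewer arrays to estimate the spread, members called numbered 0 for IL4I1 in shCtrl cells, 0 for IL4I1 with shAHR1 and 1 for IL4I1 with shAHR2 against empty-vector shCtrl cells, in place of 2 each. With a required log2 change of at least 1 they were 1 for IL4I1 in shCtrl cells and 0 for the mean IL4I1 change, the mean hairpin change and IL4I1 with shAHR1. Without dim genes, which leaves fewer tests to adjust for, they were 1 for IL4I1 in shAHR1 cells (GLUL), 1 for shAHR2 without IL4I1 (ARG2) and 4 for the mean hairpin change (ARG2, ASS1, OAT and ODC1). A trended robust fit called 1 member for IL4I1 in shAHR1 cells, and array weights called 1 in shAHR2 cells (GLUL both times). The trended robust fit also called ASS1 for the mean hairpin change (0.37, adjusted p = 0.03), 3 members in place of 2, as did the fit without replicate 1 of the empty-vector shCtrl cells (0.49, adjusted p = 0.0062); the cause was not tested.

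Leaving out 1 array gave 1 to 2 called members for IL4I1 in shCtrl cells, 0 to 1 for IL4I1 in shAHR2 cells, 0 to 1 for shAHR2 without IL4I1, 0 to 3 for the mean hairpin change and 0 to 2 for IL4I1 with shAHR1 against empty-vector shCtrl cells. ASS1 was called under shAHR2 without IL4I1 when replicate 1 of the empty-vector shCtrl cells was left out (0.74, adjusted p = 0.042). Same-numbered arrays correlated in their deviations over 0.1 in 11 of 45 pairs (r from -0.13 to 0.32, median 0.04). All 3 numbers did so for 1 pair of groups, empty-vector shAHR1 and shCtrl; that comparison called 0 members with a replicate block, over all arrays and, chosen after seeing the data, over its own arrays alone. For the other pairs of groups the arrays share only a number. With a replicate block the mean hairpin change called 1 member in place of 2 (ARG2), and the other counts of called members did not change. Leaving out single arrays for genes that are not members was also chosen after seeing the data.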
